A study of Mus musculus with 2 samples.

Results

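The genes described here are 8 sensors and adaptors of cytosolic nucleic acid sensing, out of the 24346 gene symbols in the deposited tables. They were taken by symbol and by function, with earlier results of these data known, and all 8 were present in both tables: the RNA sensors Ddx58, Ifih1 and Dhx58, the adaptors Mavs and Tmem173, the DNA sensor Mb21d1, the kinase Tbk1, and Zbp1. RNA was sequenced from CD4+ T cells sorted from mouse spleen on day 14, in 1 library from HFD-MI animals given probucol, a lipid-lowering antioxidant drug, and 1 library from HFD-MI animals left untreated. Both groups thus share the HFD-MI state, and HypoE stands in both file headers without explanation in the labels; the sources used here give no strain, age, probucol dose or number of animals per library. Since each group is 1 library, no spread between replicates and no p-value can be given, and every difference below is between these 2 libraries.

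In mammalian cells, RIG-I (encoded by Ddx58) and MDA5 (Ifih1) bind viral or misplaced double-stranded RNA in the cytosol and signal through MAVS, an adaptor on the outer mitochondrial membrane. DNA in the cytosol is bound by cGAS (Mb21d1), whose cyclic dinucleotide product activates STING (Tmem173) at the endoplasmic reticulum. Both routes meet at the kinase TBK1, which phosphorylates IRF3 and so turns on type I interferon genes. Several sensors are themselves induced by interferon, and in T cells strong STING activation is known to restrain proliferation and to promote cell death.

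The promoter windows of Ddx58 and Ifih1 are shown because both genes are known interferon targets, and the ratio of probucol over untreated was above 1 for Ddx58, while that of Ifih1 was not detectably different from 1. The windows come from RefSeq (GRCm38.p6) and were searched for 5 of the 8 genes. They run from 250 bases before the annotated start to 50 bases after it. Capitals mark matches to the core of the interferon-stimulated response element (GAAA, any 2 bases, GAAA), read on either strand, and in Ddx58 also 1 match to GAAANGAAA, a motif with a spacer shorter by 1 base that was added after the sequences had been read.
Ddx58, chr4:40239776-40240075, minus strand: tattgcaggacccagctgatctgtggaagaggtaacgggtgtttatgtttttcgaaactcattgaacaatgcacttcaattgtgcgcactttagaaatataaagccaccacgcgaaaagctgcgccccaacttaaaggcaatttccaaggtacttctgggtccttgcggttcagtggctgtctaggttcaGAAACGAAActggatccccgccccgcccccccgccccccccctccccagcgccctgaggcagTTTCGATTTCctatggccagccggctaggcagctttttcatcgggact
Ifih1, chr2:62646206-62646505, minus strand: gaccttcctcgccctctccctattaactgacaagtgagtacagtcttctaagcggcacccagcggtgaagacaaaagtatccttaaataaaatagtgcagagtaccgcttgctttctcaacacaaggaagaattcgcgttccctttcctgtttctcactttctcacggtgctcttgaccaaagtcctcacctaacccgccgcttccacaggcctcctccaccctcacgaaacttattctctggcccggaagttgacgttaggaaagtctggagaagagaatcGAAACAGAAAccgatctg

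Counted from the annotated start, the response element core lay at bases 33 to 42 in Ifih1 and, on the opposite strand, at bases 3 to 12 in Ddx58, while the shorter-spaced motif of Ddx58 lay at bases -60 to -52. The motifs did not overlap each other. Dhx58 and Zbp1 had no RefSeq window, and Tmem173 was left out of the search. The windows of Mavs, Mb21d1 and Tbk1 held neither motif, so 2 of the 5 genes searched held that core, against 3.99% of all 27025 genes with a window. For the added motif the share was 1 of 5, against 3.70% of all genes. TTCNNNGAA, the core of the gamma activated sequence, was searched on both strands as well; it was in none of the 5 windows and in 9.55% of all genes. A match here is a description of the letters and shows no binding.

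The depth behind the values was read from steps in low FPKM values (fragments per length of transcript, in kilobases, and per mapped fragments of the library). One fragment on a transcript of 1 kb was worth about 0.101 FPKM with probucol and 0.0998 FPKM untreated, which corresponds to scaling by about 9.94e+06 fragments (probucol) and 1.0e+07 fragments (untreated). Above 0 were 14289 symbols with probucol and 16876 untreated. Of 12 T cell identity genes looked for, 9 had a row, with levels from 82.2 to 1256 FPKM with probucol and from 82.8 to 1419 FPKM untreated. Genes of other cells were present as well. The 15 B cell genes with a row summed to 109.5 FPKM with probucol against 59.3 FPKM untreated, with Pax5 at 0 in both, and 10 of 11 compared were higher. The 16 erythroid genes summed to 406 FPKM (probucol) against 1255 FPKM (untreated), and all 13 compared were lower. The 17 macrophage genes summed to 594 FPKM (probucol) against 629 FPKM (untreated), most of it from Ctsd and Lyz2. By gene, 7 of 12 compared were higher and 5 lower, with a median log2 ratio of 0.23. Csf1r was at 3.75 FPKM (probucol) against 1.85 FPKM (untreated), while Hmox1 was at 17.4 FPKM (probucol) against 26.9 FPKM (untreated). The 13 natural killer genes summed to 117 FPKM (probucol) against 116 FPKM (untreated), most of it from Prf1, Tyrobp and Fcer1g; by gene, 3 of 8 compared were higher and 5 lower, with a median of -0.37. Among the lower ones, Klrd1 was at 1.22 FPKM (probucol) against 6.22 FPKM (untreated) and Klrk1 at 0.785 FPKM (probucol) against 2.38 FPKM (untreated). Gzma was at 0.15 FPKM (probucol) against 3.28 FPKM (untreated). Prf1 was higher, at 49.85 FPKM (probucol) against 36.3 FPKM (untreated). So was Ncr1, at 1.04 FPKM (probucol) against 0.0796 FPKM (untreated), a gene too low to be among the 8 compared. The 11 neutrophil genes summed to 1093 FPKM (probucol) against 973 FPKM (untreated), with 10 of 11 higher. The 12 conventional dendritic cell genes summed to 33.1 FPKM (probucol) against 31.4 FPKM (untreated), with 2 of 5 compared higher. The 12 plasmacytoid dendritic cell genes summed to 207 FPKM (probucol) against 202 FPKM (untreated), with 5 of 7 higher. Most of this sum came from Bst2, at 156 FPKM (probucol) and 170 FPKM (untreated), which is also among the type I interferon response genes below. Siglech was at 0.687 FPKM (probucol) and 0.228 FPKM (untreated), and Spib is also among the B cell genes. The 2 CD8 T cell genes summed to 16.1 FPKM (probucol) against 19.9 FPKM (untreated), nearly all of it from Cd8b1. Cd8a was at 0.139 FPKM (probucol) and 0.276 FPKM (untreated). The 6 platelet genes summed to 5.84 FPKM (probucol) against 2.97 FPKM (untreated), and the 7 plasma cell genes to 109.1 FPKM (probucol) against 95.5 FPKM (untreated). The part of these other cells in the values below was not tested, and fewer cells of a type cannot be told apart from less RNA per cell.

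The 8 genes spanned a wide range of levels, and FPKM, being per length, allows their order to be given. Tmem173 was the highest, at 168 FPKM in the probucol library against 174 FPKM untreated, a mean at percentile 93.5 of the 10663 symbols compared (those with a mean FPKM of at least 1 over both libraries). Zbp1 and Tbk1 followed in both libraries. Mavs and Ddx58 came next, with Ddx58 above Mavs with probucol and below it untreated. Dhx58 stood sixth in both, and Ifih1 and Mb21d1 were the lowest, at percentiles 20.4 and 18.6. With 95% Poisson counting intervals around each level, by the median transcript length, neighbours in this order were separate except for Mb21d1 and Ifih1 in both libraries and for Mavs and Ddx58 in the untreated one. The STING transcript was 44.4 times as abundant as that of its upstream enzyme cGAS with probucol and 51.8 times untreated.

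**Figure D1:**
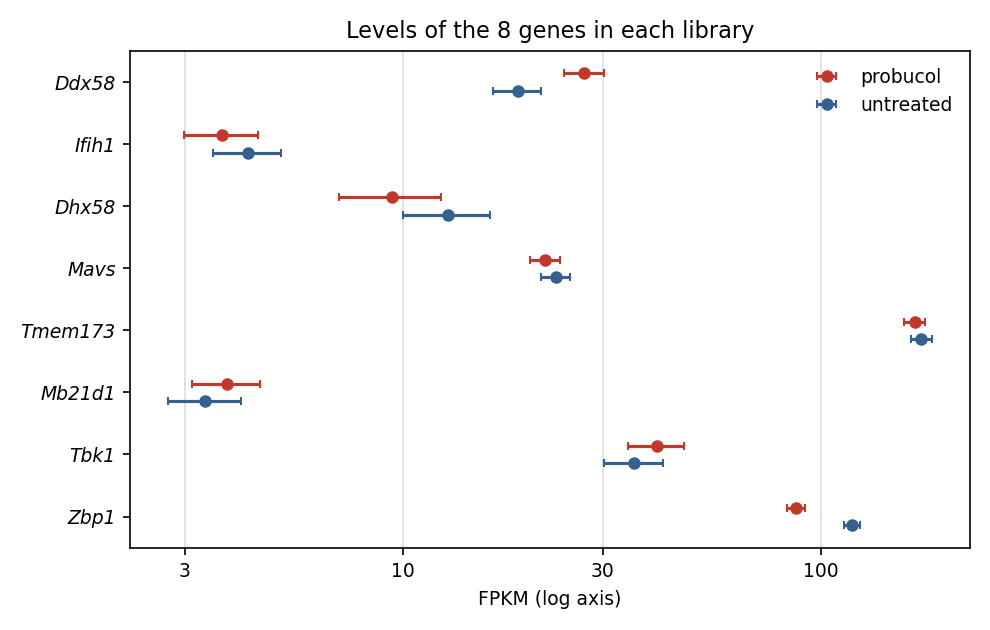
Level of each of the 8 genes in FPKM (log axis) in the probucol library (red, upper point) and the untreated library (blue, lower point); bars are 95% Poisson counting intervals from estimated fragments on the median transcript length. Levels run from 3.36 FPKM for Mb21d1 untreated to 174 FPKM for Tmem173 untreated, and the intervals of the libraries are apart for Ddx58 and Zbp1 and overlap for the other 6 genes.

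Among the RNA sensors, the signalling receptor RIG-I was higher with probucol, while the ratios of its relatives MDA5 and LGP2 were below 1. Their counting intervals included 1 by the median transcript length, but that of LGP2 did not by the longest transcript. Ddx58 (chromosome 4, 40203773 to 40239828, minus strand, mm10) had 27.1 FPKM in the probucol library, against 18.8 FPKM in the untreated one. This was 1.44-fold higher (95% counting interval 1.22 to 1.72), on about 328 (probucol) and 229 (untreated) fragments, and its log2 ratio of 0.51 was at percentile 91.9 of all symbols compared. Log2 ratios here are probucol over untreated on FPKM + 1, while the fold of a single gene divides its FPKM in one library by that in the other. The middle 50% of all log2 ratios ran from -0.18 to 0.23, so Ddx58 lay outside it on the high side. Its level had a counting interval of 24.2 to 30.2 FPKM with probucol and of 16.4 to 21.4 FPKM untreated, which do not overlap. By its longest transcript the interval of the fold was 1.31 to 1.59.

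Ifih1 (chromosome 2, 62595798 to 62646255, minus strand), which encodes the sensor of long double-stranded RNA, had 3.68 FPKM in the probucol library, against 4.25 FPKM untreated. Its ratio was 0.867 with an interval from 0.656 to 1.15, on about 99 (probucol) and 115 (untreated) fragments, so a difference was not detectable at this depth. The log2 ratio of Ifih1 was -0.16, at percentile 26.7. Dhx58 (chromosome 11, 100694884 to 100704271, minus strand) encodes LGP2, a helicase that lacks the signalling domains of the other RNA sensors and modulates their activity. It had 9.37 FPKM in the probucol library, against 12.8 FPKM untreated, a ratio of 0.734 and a log2 ratio of -0.41, at percentile 10.1. The counting interval of its ratio ran from 0.506 to 1.07 when fragments were estimated from its median annotated transcript length, on about 52 (probucol) and 71 (untreated) fragments, and from 0.609 to 0.880 with its longest transcript, on about 205 (probucol) and 282 (untreated) fragments. Over 2637 bases Dhx58 overlaps Dhx58os, a gene on the opposite strand that has no row in the tables. The labels name no stranded counting, so reads of this pair cannot be told apart.

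The level of Ddx58 was 2.89 times that of Dhx58 with probucol and 1.47 times untreated. Against Ifih1 it was 7.36 times with probucol and 4.42 times untreated. The level of Mavs was 0.808 of that of Ddx58 with probucol and 1.23 of it untreated, which is the change of order described above.

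**Figure D2:**
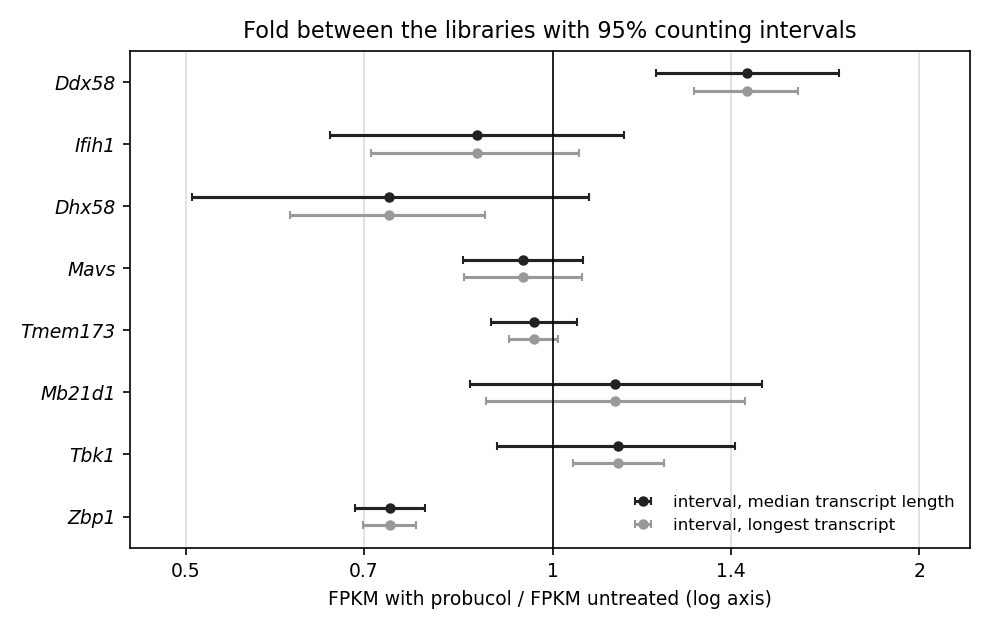
Ratio of FPKM with probucol over FPKM untreated (log axis) for each gene, with 95% counting intervals from the median annotated transcript length (black) and from the longest (grey). With the black intervals Ddx58 lies above 1 and Zbp1 below it; with the grey ones Tbk1 also lies above 1 and Dhx58 below it.

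The adaptors of both routes were close in the libraries. Mavs (chromosome 2, 131234063 to 131248025, plus strand) had 21.9 FPKM in the probucol library, against 23.2 FPKM untreated. Its ratio of 0.945 had an interval from 0.843 to 1.06, on about 588 (probucol) and 627 (untreated) fragments. Tmem173, the STING adaptor, had a ratio of 0.965 with an interval from 0.890 to 1.05, on about 1152 (probucol) and 1203 (untreated) fragments. The intervals of the adaptors are the narrowest among the genes near equality, and both leave out, as far as counting error goes, a difference as large as that of Ddx58. Their log2 ratios of -0.08 for Mavs and -0.05 for Tmem173 were at percentiles 37.3 and 40.7, near the middle of all symbols. The level of Tmem173 over that of Mavs was 7.67 with probucol and 7.51 untreated.

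Mb21d1 (chromosome 9, 78430526 to 78443237, minus strand; named Cgas in the annotation) had 3.78 FPKM in the probucol library, against 3.36 FPKM untreated. The ratio of 1.13 had an interval from 0.855 to 1.49, on about 114 (probucol) and 102 (untreated) fragments, so neither equality nor a difference of up to 1.49-fold is settled at this depth. The log2 ratio of Mb21d1 was 0.13, at percentile 64.5. Over 280 bases Mb21d1 overlaps Gm8093, a pseudogene on the opposite strand. Tbk1 (chromosome 10, 121546455 to 121586787, minus strand) had 40.4 FPKM in the probucol library, against 35.7 FPKM untreated. Its ratio of 1.13 had an interval from 0.901 to 1.41 by the median transcript length and from 1.04 to 1.23 by the longest transcript. The log2 ratio of Tbk1 was 0.17, at percentile 69.1. Its close relative Ikbke, the other kinase that phosphorylates IRF3, was at 75.4 FPKM (probucol) and 73.8 FPKM (untreated), above Tbk1 in both libraries, by 1.87 times with probucol and 2.07 times untreated.

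Zbp1 (chromosome 2, 173206612 to 173218923, minus strand) encodes a sensor of left-handed Z-form nucleic acid that can trigger cell death through RIPK3. It had 87.3 FPKM in the probucol library, against 119 FPKM untreated, 1.36-fold lower (1.27 to 1.45). Zbp1 and Dhx58 had the lowest ratios of the 8 genes, 0.735 for Zbp1 and 0.734 for Dhx58, and are not ranked apart. About 1543 (probucol) and 2116 (untreated) fragments stand behind these levels by the median transcript length. Its log2 ratio of -0.44 was at percentile 9.04 of all symbols compared. The counting interval of its level was 83.0 to 91.7 FPKM with probucol and 114 to 124 FPKM untreated, so the libraries did not overlap. By its longest transcript the interval of the fold was 1.29 to 1.43-fold lower. The level of Zbp1 was 1.63 times that of Ripk3 with probucol and 2.0 times untreated.

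All 8 genes passed the minimum mean level, and 0 of them differed by 2-fold or more, where 3.60% of all symbols compared did (1.62% higher and 1.98% lower). Lower with probucol were 5 of the 8, against 47.3% of all symbols. At a log2 ratio of at least 0.32 in size, 1 of the 8 was higher, Ddx58, against 17.8% of all symbols, and 2 were lower, Dhx58 and Zbp1, against 14.1%. The counting interval left out equality for 2 of the 8 genes, against 37.3% of the 10596 symbols with an estimated fragment number. With only 8 genes, none of these counts is read as a difference from the whole table. The median log2 ratio of the 8 genes was -0.06, beside 0.02 for all symbols.

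**Figure D3:**
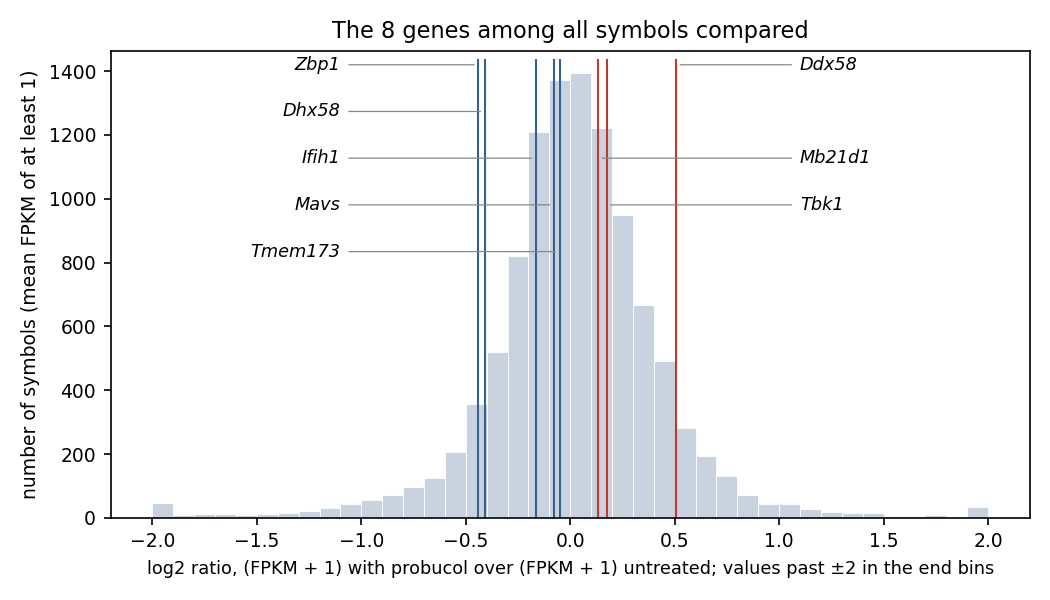
Number of symbols by log2 ratio of probucol over untreated, for the 10663 symbols with a mean FPKM of at least 1; vertical lines mark the 8 genes, red where higher with probucol and blue where lower. The lines run from -0.44 for Zbp1 to 0.51 for Ddx58, all within 2-fold.

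The other genes of the pathway were taken from 10 lists of 219 distinct genes, written with earlier results of these data known. The list with the lowest median among those with more than 6 genes compared was that of type I interferon response genes, the targets at the end of the pathway. Of its 33 genes compared, 31 were lower and 2 higher, with 4 lower and 1 higher by at least 2-fold, and a median of -0.33 against 0.02 for all symbols. Rsad2, an antiviral enzyme, was at 0.981 FPKM (probucol) and 3.66 FPKM (untreated), and Ifit3 at 4.09 FPKM (probucol) and 10.6 FPKM (untreated). Irf9 and Stat2, transcription factors that carry the interferon signal, were nearer to equal. Irf9 stood at 76.5 FPKM (probucol) and 79.6 FPKM (untreated), and Stat2 at 15.5 FPKM (probucol) and 16.7 FPKM (untreated). Irf7, the interferon-induced amplifier of the response, was 1.38-fold lower (1.21 to 1.56), a size close to that of Zbp1 and Dhx58.

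Set among these 33 genes, Zbp1 had a higher log2 ratio than 14 of them and Dhx58 a higher one than 15, so both lay near the middle of the list. Ddx58 had a higher log2 ratio than 32 of the 33, Oas2 being the exception. Oas2, an enzyme that makes oligoadenylates when it binds double-stranded RNA, was at 4.85 FPKM (probucol) and 1.20 FPKM (untreated), 4.04-fold higher (2.77 to 6.02). Of the OAS family, 6 of 12 genes passed the minimum level, with 4 lower and 2 higher. Oas1a was at 6.15 FPKM (probucol) and 14.6 FPKM (untreated) and Oas3 at 4.13 FPKM (probucol) and 7.02 FPKM (untreated), so the RNA sensors of this family also stood on both sides of equality. The sequences of Oas1 paralogues are alike, and fragments may have been split between them. In the promoter windows, the response element core was found in 11 of 25 type I interferon response genes, against 3.99% of all genes with a window. It was also in 11 of 24 genes of the list of interferon genes and receptors and in 4 of 8 OAS genes.

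Interferon genes themselves were at or near 0 in both libraries. Of 20 type I and III interferon ligand genes, 19 were listed at 0 with probucol and 15 untreated, in a table where the untreated library had more symbols above 0 overall. Ifnb1 was listed at 0 with probucol and at 0.533 FPKM untreated, on about 3 fragments, and the highest of the 20 had 0.160 FPKM in the probucol library, against 0.814 FPKM untreated. The receptor genes were expressed: Ifnar1 stood at 22.4 FPKM (probucol) against 23.9 FPKM (untreated), with a ratio of 0.934 (0.786 to 1.11), and Ifnar2 at 62.1 FPKM (probucol) and 75.4 FPKM (untreated), 1.21-fold lower (1.08 to 1.36).

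**Figure D4:**
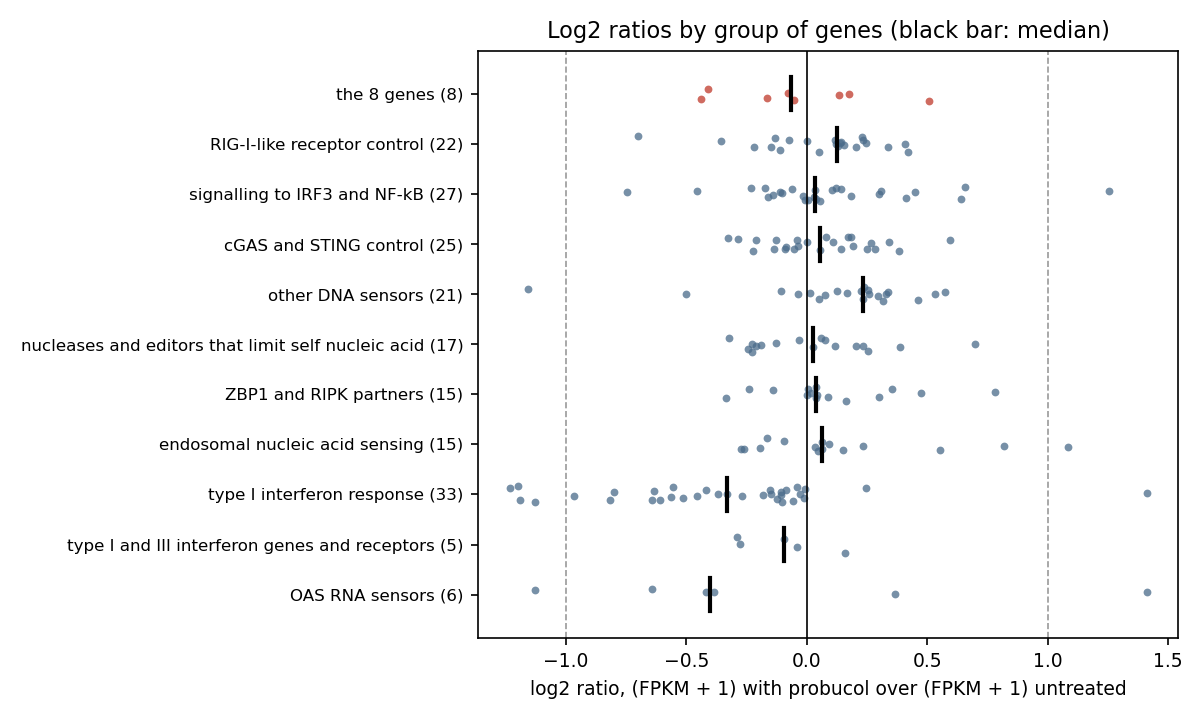
Log2 ratio of probucol over untreated for each gene compared, by list, with the number of genes in brackets, the list median as a black bar and dashed lines at 2-fold. The type I interferon response list has its median at -0.33 and the list of other DNA sensors at 0.23, while the 8 genes (red) have theirs at -0.06.

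Between the sensors and their targets, the signalling list leading to IRF3 and NF-kB held 27 genes compared, 16 higher and 11 lower, with a median of 0.03. The genes that act directly with TBK1 did not move alike. Irf3, its substrate, had a ratio of 1.11 (0.959 to 1.28), Traf3, which links MAVS to TBK1, of 1.04 (0.935 to 1.17), and Tank, a scaffold of the TBK1 complex, of 1.03 (0.950 to 1.11), all with intervals that included 1. Azi2, another adaptor that binds TBK1, was at 45.4 FPKM (probucol) against 32.9 FPKM (untreated), 1.38-fold higher (1.19 to 1.60), while Irf7, also a substrate, was lower, as given above. Traf6, a ubiquitin ligase of the NF-kB branch, was 1.64-fold higher (1.33 to 2.04). Dok3, an adaptor best known from B cells and myeloid cells, was 3.31-fold higher (2.04 to 5.76), the only gene of this list past 2-fold. The part of the B cell genes, whose sums are given above, in Dok3 was not tested.

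The regulators of the RIG-I-like receptors had a median of 0.13, with 14 of 22 genes higher and 8 lower and 0 past 2-fold. The highest log2 ratio among them was 0.42, for the RNase Zc3h12a, beside 0.51 for Ddx58. By plain fold Zc3h12a was at 1.50, with an interval that included 1 (0.925 to 2.40), and Ddx58 at 1.44. Trim25, the ubiquitin ligase tied to RIG-I activation, had a ratio of 0.946 (0.850 to 1.05). Cyld, a deubiquitinase that restrains the pathway, was 1.34-fold higher (1.23 to 1.45). Nlrx1, a mitochondrial regulator of MAVS, was at 1.96 FPKM (probucol) and 3.81 FPKM (untreated), 1.95-fold lower (1.44 to 2.67).

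On the DNA side, 14 of 25 genes around cGAS and STING were higher and 11 lower, with a median of 0.06 and 0 past 2-fold, so Mb21d1 at 0.13 and Tmem173 at -0.05 lay on either side of it. The other DNA sensors had the highest median of the 10 lists, 0.23, with 17 of 21 genes higher and 4 lower. Prkdc, the catalytic subunit of the DNA-dependent protein kinase, was 1.61-fold higher (1.39 to 1.86), and Ifi202b was at 0.379 FPKM (probucol) and 2.08 FPKM (untreated), with fragments possibly split among closely related genes. Enzymes that remove or edit the cell's own nucleic acid had a median of 0.02, with 9 of 17 genes higher and 8 lower. Among them Adar, the RNA editor that keeps self RNA from MDA5, was 1.18-fold lower (1.05 to 1.32), and Trex1, the exonuclease that degrades cytosolic DNA, 1.16-fold higher (1.03 to 1.30).

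The partners of ZBP1 in cell death had a median of 0.04, with 11 of 15 genes higher and 4 lower and 0 past 2-fold. The lowest log2 ratio of the 15 genes compared was -0.34, beside -0.44 for Zbp1. Ripk3 had a ratio of 0.905 (0.716 to 1.14) and Ripk1 of 1.03 (0.917 to 1.15). Casp8, the protease that restrains RIPK3 signalling, was 1.28-fold higher (1.20 to 1.36). Mlkl, which carries out necroptosis, was at 0.470 FPKM (probucol) and 1.47 FPKM (untreated) on about 5 (probucol) and 16 (untreated) fragments, a log2 ratio of -0.75, and did not pass the minimum level.

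The endosomal route, the other main way to sense nucleic acid, had a median of 0.06, with 10 of 15 genes higher and 5 lower. Past 2-fold on FPKM + 1 was Ctsl, a lysosomal protease, at 11.4 FPKM (probucol) against 4.87 FPKM (untreated). The receptors of this route were at low levels: Tlr9 was listed at 0 in both libraries, Tlr3 at 0 with probucol and 0.0242 FPKM untreated, Tlr8 at 0.306 FPKM with probucol and 0 untreated, Tlr13 at 0.474 FPKM (probucol) and 0.603 FPKM (untreated), and Tlr7, also a B cell gene, at 1.84 FPKM (probucol) and 0.612 FPKM (untreated).

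As a description over the 2 libraries, the 178 list genes compared were ranked by their distance from each of the 8 genes in log2(FPKM + 1). Nearest to Ddx58 were Pnpt1, at 24.8 FPKM (probucol) and 18.7 FPKM (untreated) with a distance of 0.12, and Chuk, with a distance of 0.20. Nearest to Zbp1 were Hmgb2, at a distance of 0.12, and Rnaseh2c, at 0.20. Dhx58 was nearest to Parp14 and Irf5, at 0.18 and 0.24. Mavs was nearest to Trim30a and Ifnar1, at 0.02 and 0.05, and Tbk1 to Tomm70a and Birc2, at 0.04 and 0.07. Ifih1 was nearest to Ttc37 and Ddx60, Mb21d1 to Ddx60 and Enpp1, and Tmem173 to Bst2 and Ifi27, at distances between 0.04 and 0.18. With only 2 libraries, such a distance combines the level and 1 ratio, and many genes can lie close by level alone.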

How the data were processed

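Per the file headers, the authors deposited FPKM values, with 1 table for each library. The submitters' processing notes name mm10, Cuffdiff 2.2.1, Bowtie2 and TopHat2 2.1.1 but no roles; the sources used here state neither the annotation nor any scaling between libraries. Per the labels' protocols, RNA came from a miRNeasy Micro Kit and cDNA from SMART-Seq HT, with Nextera libraries and no stated molecular identifiers. From these values, log2 ratios were taken on FPKM + 1 over all symbols with a mean FPKM of at least 1. No count model was used on FPKM.

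Fragments were estimated from steps in low values of genes with 1 GENCODE M21 (GRCm38) transcript of 800 to 10000 bp, with 210 bp subtracted; 80.4% of low values with probucol and 80.3% untreated lay within 0.1 of a whole fragment, where 20% would by chance. Lengths were found for 23975 symbols. Exact (Clopper-Pearson) and Poisson 95% intervals cover counting error only, and PCR copies are not independent molecules. The step fit and the ratios were tested on simulated data. Python 3.11.15, numpy 2.4.6, pandas 2.3.3 and scipy 1.17.1 were used.

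The 8 genes, the 10 pathway lists and the marker lists were chosen with earlier results of these data known. Named genes were the 8, up to 4 genes of each list with the largest log2 ratios in size, and a fixed set of pathway genes; for length not all are printed. Marker genes without a row, such as Trac, Ighm and Ly6g, were not analysed here.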

Additional observations from a re-analysis of the deposited data

How the results depend on the processing

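Each of the 8 genes kept the direction of its log2 ratio under all alternatives tried: pseudocounts of 0.1 and 5, other filters on low values, rescaling to equal sums, centring on the median gene, and leaving out predicted and small RNA symbols. A pseudocount, a filter or leaving out other symbols cannot change that direction. Rescaling and centring moved log2 ratios by only about 0.02, less than the smallest of the 8 in size, -0.05 for Tmem173. The kept directions were thus fixed by these settings and are no test of whether a direction is real. Ddx58 ranged from 0.43 to 0.53, Zbp1 from -0.46 to -0.42 and Dhx58 from -0.44 to -0.31; Ifih1 and Mb21d1 have no value at a mean FPKM of at least 5. Symbols at least 2-fold higher numbered 173; pseudocount 0.1 gave 313, pseudocount 5 gave 55, and a minimum mean of 5 FPKM gave 83. Symbols at least 2-fold lower numbered 211, with 357, 64 and 96 under the same alternatives in that order. The counting interval left out equality for 2 of the 8 genes, and for 4 with the longest annotated transcript, Dhx58 and Tbk1 being added, since more fragments are then estimated. The list of OAS sensors, with 6 genes compared, depended most on the settings: its median of -0.40 was -0.51 and -0.21 at pseudocounts 0.1 and 5, 0.0 with no filter, -0.64 at a mean of at least 5 FPKM and -0.0081 without genes of other lists, and its mean was -0.13. At a mean of at least 5 FPKM the medians turned to -0.0185 for cGAS and STING control, from 0.06, and to -0.0339 for nucleases and editors, from 0.02. The interferon response median of -0.33 was -0.19 at pseudocount 5 and -0.23 at a mean of at least 5 FPKM, and the other DNA sensors had a mean of 0.13 beside a median of 0.23. The remaining list medians moved by at most 0.1 and did not change sign, apart from 0.0 for interferon genes and receptors with no filter. No paired analysis was possible because each group has 1 library, and for the same reason no library could be left out. Depth limits Ifih1, Mb21d1 and Dhx58 most.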
